A study of Mus musculus with 20 samples.

Results

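Mpo, Elane, Prtn3, Ctsg, Ms4a3, Cebpe, Mmp8, S100a8 and S100a9 are genes of the neutrophil lineage, and their RNA was measured here in cultured mouse macrophages. The set was defined by name: every non-control probe of the array whose gene name in the scanner files equals 1 of these 9 symbols was taken, which gave 10 probes out of 39429, and 9 genes out of 30175 gene names. Of the 10 probes, 9 passed the filter on dim signals (detected well over background on 3 or more arrays, in either dye), and they represent all 9 genes. The probe that did not pass is the second one for Mpo, which was well above background on 1 array in Cy3 and on 0 arrays in Cy5. The set had been labelled as lying outside chromosome 9, but the files place the Mmp8 probe on chromosome 9, at chr9:7568238-7568297 in mm9, at -111.7 Mb relative to the probe of Myd88 on the same chromosome. The other 8 genes lie on other chromosomes: Mpo on 11, Elane and Prtn3 on 10, Ctsg and Cebpe on 14, Ms4a3 on 19, and S100a8 and S100a9 on 3.

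The arrays compared bone marrow-derived macrophages of 4 genotypes: double-KO cells, which lack both adapters by their label, MyD88-KO cells, TRIF-KO cells and WT cells. Each genotype had 5 arrays, at 1, 2, 4, 8 and 16 h, and each array held the RNA of LPS-treated cells in 1 dye and, in the other, that of their untreated counterparts. MyD88 and TRIF, the product of Ticam1, are the adapter proteins through which Toll-like receptor 4 signals when it meets bacterial lipopolysaccharide (LPS). All mice were C57BL/6, matched for age and gender per the labels' protocols. The marrow cells had grown for 6 days with M-CSF, a macrophage growth factor taken from L929-conditioned medium, were moved to medium free of serum, and received either 200 ng/mL LPS or none. Ages, the design of the deleted alleles and the number of animals behind a culture were not given in the sources used here, so p-values measure the spread between arrays, which may be technical. The time point is at once the replicate number, and each genotype has 1 array per time. In fits with genotype and time point as terms, the spread therefore also holds any difference between genotypes in their course over time. A lack of calls there, above all after LPS, does not show that genotypes are alike.

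Neutrophil precursors in the bone marrow fill their granules in order. Promyelocytes make the primary, or azurophil, granules with myeloperoxidase and the serine proteases, myelocytes then switch on the transcription factor C/EBP epsilon and make the secondary granules, and later cells add gelatinase granules and large amounts of S100A8 and S100A9 in the cytosol. Macrophages grown in M-CSF come from the same marrow progenitors, and monocytes also express S100a8 and S100a9, so neither gene by itself marks a neutrophil. In RNA from a mixed culture, fewer cells of a type and less RNA per cell cannot be told apart.

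The array reads each gene through an oligonucleotide of 60 bases. Both printed here show what the values below rest on: the Prtn3 probe is joined from pieces that together span 817 bases in mm9 (chr10:79343869-79344685), and the S100a8 probe is 1 unbroken stretch (chr3:90473778-90473837).
Prtn3 probe: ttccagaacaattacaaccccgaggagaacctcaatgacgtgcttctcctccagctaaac
S100a8 probe: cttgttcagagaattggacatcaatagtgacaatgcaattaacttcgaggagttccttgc

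Promoter windows of RefSeq (build GRCm38.p6, 250 bases before to 50 bases after the start) were held for 8 of the 9 genes. Those of 6 genes are shown because these genes fall into pairs that moved together or lie side by side: S100a8 with S100a9, Mpo with Ctsg, and Elane with Prtn3. Capitals mark 3 short words on either strand: AGGAAGT (reverse ACTTCCT), a core bound by ETS factors such as PU.1, TTGCNNAA, the core of C/EBP sites, and TATAAA (reverse TTTATA), the letters of a TATA box.
Mpo, chr11:87793534-87793833, plus strand: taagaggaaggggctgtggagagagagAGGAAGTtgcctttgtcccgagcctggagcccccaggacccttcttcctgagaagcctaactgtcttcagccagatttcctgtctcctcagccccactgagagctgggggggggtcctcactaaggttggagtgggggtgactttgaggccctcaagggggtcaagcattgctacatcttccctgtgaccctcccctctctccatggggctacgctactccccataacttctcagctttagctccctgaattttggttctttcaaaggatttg
Ctsg, chr14:56102525-56102824, minus strand: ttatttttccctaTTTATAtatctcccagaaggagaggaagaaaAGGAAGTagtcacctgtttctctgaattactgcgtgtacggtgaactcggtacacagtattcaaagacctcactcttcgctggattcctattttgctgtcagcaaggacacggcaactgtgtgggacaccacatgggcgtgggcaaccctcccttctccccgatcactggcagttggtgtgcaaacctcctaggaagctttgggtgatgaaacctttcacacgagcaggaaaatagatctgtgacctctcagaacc
Elane, chr10:79886062-79886361, plus strand: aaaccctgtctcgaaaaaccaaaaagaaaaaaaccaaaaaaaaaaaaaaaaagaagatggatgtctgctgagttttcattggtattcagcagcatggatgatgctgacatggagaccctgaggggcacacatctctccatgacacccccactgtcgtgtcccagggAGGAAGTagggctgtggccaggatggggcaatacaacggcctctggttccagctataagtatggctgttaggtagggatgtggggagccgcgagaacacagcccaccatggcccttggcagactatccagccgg
Prtn3, chr10:79879417-79879716, plus strand: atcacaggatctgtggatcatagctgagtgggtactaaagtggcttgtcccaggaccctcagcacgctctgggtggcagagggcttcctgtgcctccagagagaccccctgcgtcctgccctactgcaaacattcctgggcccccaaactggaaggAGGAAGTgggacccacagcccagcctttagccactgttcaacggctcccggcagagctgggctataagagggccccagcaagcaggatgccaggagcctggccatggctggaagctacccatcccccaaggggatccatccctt
S100a8, chr3:90668821-90669120, plus strand: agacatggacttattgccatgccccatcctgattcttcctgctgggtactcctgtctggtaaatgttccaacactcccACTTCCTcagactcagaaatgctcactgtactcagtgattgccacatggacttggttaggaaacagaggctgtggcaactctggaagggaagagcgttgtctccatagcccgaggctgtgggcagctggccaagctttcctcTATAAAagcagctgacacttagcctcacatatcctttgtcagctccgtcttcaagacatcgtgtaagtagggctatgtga
S100a9, chr3:90695672-90695971, minus strand: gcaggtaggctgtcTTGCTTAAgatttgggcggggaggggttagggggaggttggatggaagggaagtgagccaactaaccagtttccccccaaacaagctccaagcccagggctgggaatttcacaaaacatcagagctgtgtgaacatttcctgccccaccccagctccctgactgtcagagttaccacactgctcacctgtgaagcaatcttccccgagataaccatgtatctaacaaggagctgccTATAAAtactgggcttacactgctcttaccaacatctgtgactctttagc
AGGAAGT was found in the windows of 6 of the 8 genes (Mpo, Elane, Prtn3, Ctsg, Mmp8 and S100a8), and in 9.35% of the 32851 windows of the same length in the table. TTGCNNAA was found in 3 of the 8 (Ms4a3, Mmp8 and S100a9) and in 10.8% of all windows. TATAAA was found in 4 of the 8 (Ctsg, Mmp8, S100a8 and S100a9) and in 13.6% of all windows. Relative to the start, it begins at position -30 in S100a8 and at 0 in S100a9. On the reverse strand it begins at -237 in Ctsg and at -3 in Mmp8. These are matches of letters, with no measure of binding.

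The mean level of 10 macrophage markers, among them Csf1r, Cd68 and Emr1, ran from 15.85 to 16.14 in double-KO, from 16.05 to 16.44 in MyD88-KO, from 15.99 to 16.21 in TRIF-KO and from 15.98 to 16.22 in WT, in log2 intensity. The mean level of 7 T and NK cell markers lay between 7.91 and 8.25 on all arrays. Ticam1, the targeted gene of TRIF-KO, averaged 7.28 ± 0.04 in double-KO (SD, n = 5), 10.47 ± 0.10 in MyD88-KO (SD, n = 4), 10.81 ± 0.28 in the arrays labelled TRIF-KO (SD, n = 5) and 10.65 ± 0.19 in WT (SD, n = 5). The label TRIF-KO is therefore not borne out by this probe. Whether the allele of these cells removes the probed RNA is not given in the sources used here. The probe thus does not counter the label either, and these arrays are called labelled TRIF-KO from here on. Myd88 averaged 14.00 ± 0.13 in double-KO, 14.10 ± 0.15 in MyD88-KO, 14.45 ± 0.48 in labelled TRIF-KO and 14.41 ± 0.39 in WT, so its probe (chr9:119245322-119245381) does not check the label MyD88-KO, and whether it lies in the deleted part is not given in the sources used here. Between 52.8% and 69.6% of spots were well above background in a channel.

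In untreated cells, MyD88-KO exceeded WT in 7 of the 9 genes and fell below it in 0, where 5.95% of all 28302 probes tested were called higher, 3.6% lower and 9.55% in either direction. S100a9 and S100a8 led with 3.06-fold and 2.56-fold higher levels, and Mmp8, Ctsg, Ms4a3, Cebpe and Mpo followed at 1.46-fold to 1.63-fold. Only S100a9 and S100a8 kept their call in all 31 alternative fits. The call was lost in 18 of these fits for Mmp8, in 13 for Cebpe, in 8 for Ctsg, in 6 for Mpo and in 2 for Ms4a3. The median difference over the 9 was 0.63 on the log2 scale, against 0.01 over all probes. Levels are log2 intensities after background correction, loess and quantile normalization, differences are on the same log2 scale, and called means an adjusted p under 0.05 in limma across all probes, with the time point as a block.

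**Figure D1:**
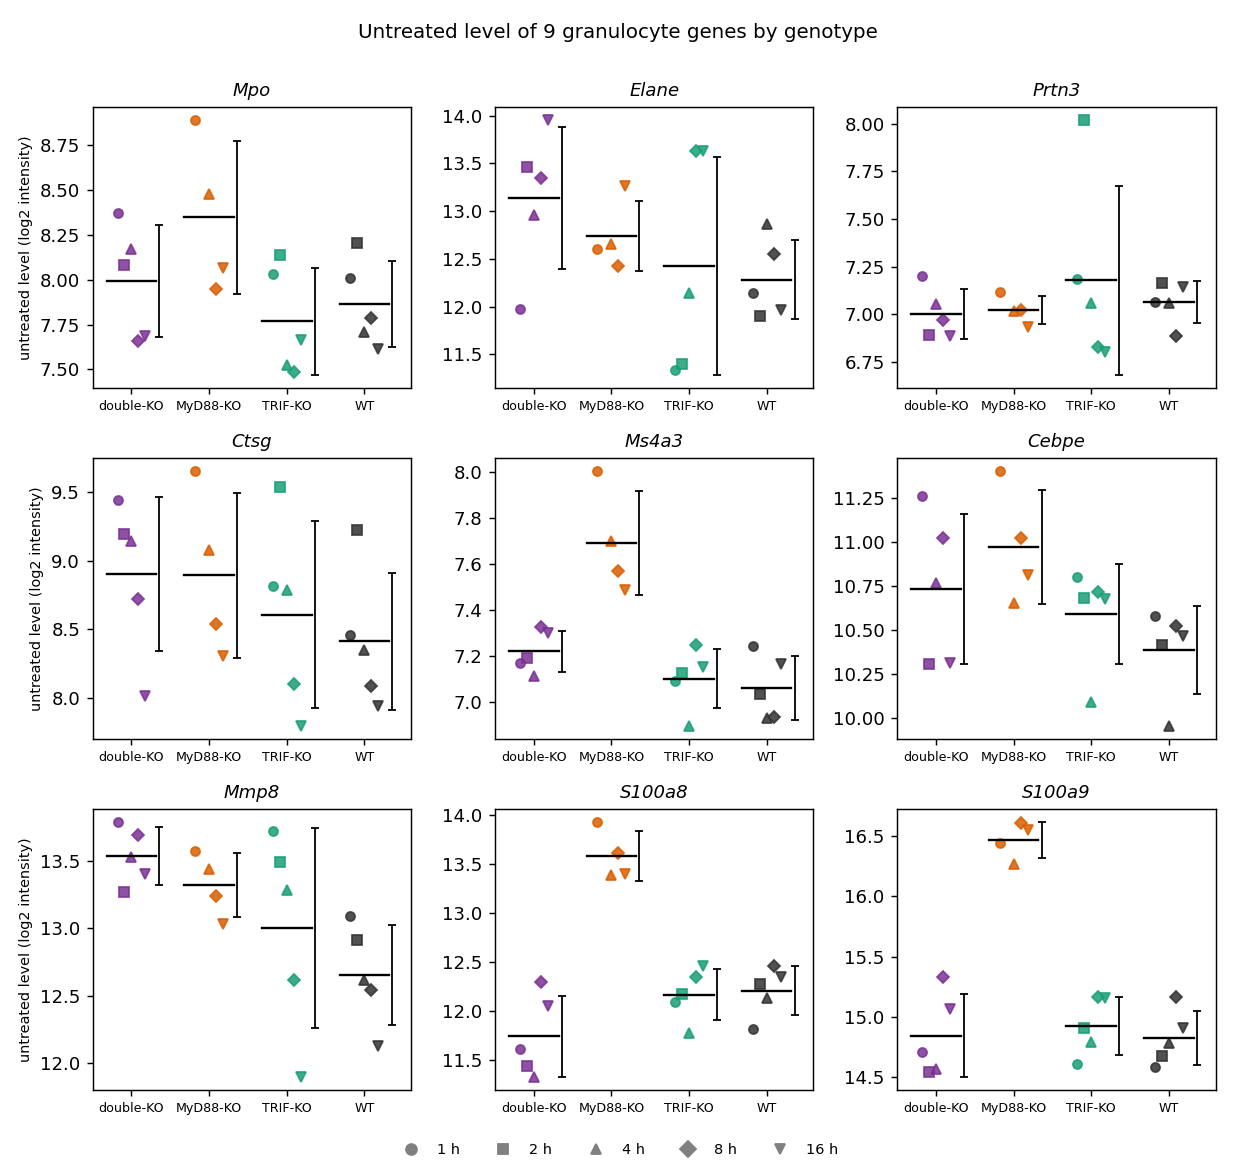
Untreated level (y, log2 intensity) of each of the 9 genes on every array, by genotype (x). Points are arrays with a symbol per time point, horizontal bars are means and vertical bars SD (n = 5, and n = 4 in MyD88-KO, whose swapped 2 h array is left out). S100a8 and S100a9 in MyD88-KO lie above every array of the other genotypes, while Elane and Prtn3 overlap throughout.

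S100a9, one of the 2 subunits of calprotectin, a calcium- and zinc-binding protein abundant in neutrophils, read 16.45, 16.27, 16.61 and 16.56 in untreated MyD88-KO at 1, 4, 8 and 16 h, against 14.58, 14.67, 14.78, 15.16 and 14.91 in untreated WT at 1, 2, 4, 8 and 16 h. The MyD88-KO arrays were all higher than the highest WT array by more than 1 log2 unit, and the groups did not overlap. The difference of 1.61 ± 0.10 (SE) had an adjusted p of 2.1e-07 in limma. The untreated RNA of the swapped MyD88-KO array at 2 h, read in the other dye and kept out of the fit, gave 16.06, also above all WT arrays.

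S100a8, the other subunit, read 13.93, 13.39, 13.62 and 13.40 in untreated MyD88-KO at 1, 4, 8 and 16 h, against 11.82, 12.27, 12.13, 12.46 and 12.35 in untreated WT in the order of time. These groups did not overlap either, and the difference was 1.36 ± 0.16 (limma adjusted p = 0.00027). With slide as a fixed block the differences were 2.29 ± 0.29 for S100a9 and 2.18 ± 0.50 for S100a8 (limma adjusted p = 0.0091 and 0.046), and with scan day as a block 1.86 ± 0.16 and 1.93 ± 0.23. MyD88-KO and WT share no slide, and on scan day 1 S100a9 read 16.45 on the 1 MyD88-KO array in the fit, against 14.58 to 15.16 in WT. On slide 3, S100a9 read 16.45 in MyD88-KO at 1 h, against 15.16 and 15.16 in labelled TRIF-KO at 8 and 16 h, and on slide 4 it read 16.27 to 16.61 in MyD88-KO, against 14.71 in double-KO at 1 h.

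Mmp8, neutrophil collagenase, a protease of the secondary granules, read 13.57, 13.44, 13.24 and 13.03 in untreated MyD88-KO at 1, 4, 8 and 16 h, against 13.09, 12.91, 12.61, 12.54 and 12.13 in untreated WT in the order of time. The lowest MyD88-KO array lay below the highest WT array, but at each of the 4 shared times MyD88-KO was higher. The difference was 0.70 ± 0.20 (limma adjusted p = 0.042), and this call was lost in 10 of the 19 fits that leave out 1 array, those without any 1 of the 5 WT arrays among them, with values from 0.62 to 0.73. The Mmp8 call was also lost without the time point as a block (limma adjusted p = 0.27). The same held with slide as a random block and with scan day as a block (limma adjusted p = 0.066 and 0.54).

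Cebpe, which encodes the transcription factor C/EBP epsilon that drives secondary granule genes, read 11.40, 10.65, 11.02 and 10.81 in untreated MyD88-KO at 1, 4, 8 and 16 h, against 10.57, 10.41, 9.95, 10.52 and 10.46 in untreated WT in the order of time. Each MyD88-KO array stood above all 5 WT arrays. The difference was 0.56 ± 0.15 (limma adjusted p = 0.032), and the call ended when WT at 1, 4 or 8 h or any 1 of the 4 MyD88-KO arrays was left out, with adjusted p from 0.054 to 0.086. The Cebpe call was also lost without the time point as a block (limma adjusted p = 0.19). The same held with slide as a random block and with scan day as a block (limma adjusted p = 0.26 and 0.19).

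Among the early genes, Mpo, the myeloperoxidase of azurophil granules, read 8.89, 8.48, 7.95 and 8.07 in untreated MyD88-KO at 1, 4, 8 and 16 h, against 8.01, 8.21, 7.71, 7.79 and 7.61 in untreated WT in the order of time. The groups overlapped, yet at each shared time MyD88-KO was higher. The difference was 0.55 ± 0.12 (limma adjusted p = 0.011). This call was lost without the time point as a block, at 0.48 (limma adjusted p = 0.27). It was also lost with slide as a random block, at 0.53, and with scan day as a block, at 0.76 (limma adjusted p = 0.098 and 0.085). The second Mpo probe, mostly at background, averaged 6.77 ± 0.22 in MyD88-KO (SD, n = 4) and 6.54 ± 0.10 in WT (SD, n = 5).

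Ctsg, the serine protease cathepsin G, read 9.65, 9.08, 8.54 and 8.31 in untreated MyD88-KO at 1, 4, 8 and 16 h, against 8.46, 9.23, 8.35, 8.09 and 7.94 in untreated WT in the order of time. The groups overlapped across times and, among the arrays in the fit, MyD88-KO was higher at each shared time. The swapped MyD88-KO array at 2 h, kept out of the fit, read 9.230, against 9.226 in WT at 2 h. The fitted difference was 0.65 ± 0.16 (limma adjusted p = 0.02). Leaving out WT at 1 or 4 h, or MyD88-KO at 16 h, ended this call, with adjusted p of 0.062, 0.062 and 0.059. The Ctsg call was also lost without the time point as a block (limma adjusted p = 0.55). The same held with slide as a random block and with scan day as a block (limma adjusted p = 0.13 and 0.091).

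Ms4a3, a membrane protein used to mark granulocyte-monocyte progenitors in mouse, was dim throughout, at 8.01, 7.70, 7.57 and 7.49 in untreated MyD88-KO at 1, 4, 8 and 16 h, against 7.24, 7.04, 6.93, 6.94 and 7.17 in untreated WT in the order of time. The groups did not overlap, and the difference was 0.63 ± 0.10 (limma adjusted p = 0.0027). It was well above background in Cy3 on 17 of 20 arrays and in Cy5 on 8. With slide as a fixed block Ms4a3 differed by 0.36 ± 0.29 (limma adjusted p = 0.48), and the calls of Mpo, Ctsg, Cebpe and Mmp8 were also lost in that fit, with differences of 0.72, 1.31, 0.39 and 1.73.

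The remaining 2 serine proteases of azurophil granules were not called. Elane, neutrophil elastase, averaged 12.74 ± 0.37 in untreated MyD88-KO (SD, n = 4) and 12.28 ± 0.41 in untreated WT (SD, n = 5), a difference of 0.36 ± 0.39 (limma adjusted p = 0.58). Prtn3, proteinase 3, averaged 7.02 ± 0.07 in MyD88-KO and 7.06 ± 0.11 in WT, and the fitted difference, with the time point as a block over all genotypes, was 0.03 ± 0.16 (limma adjusted p = 0.93), opposite in sign to the difference of the means. Prtn3 was well above background on 9 arrays in Cy3 and 7 in Cy5. Elane and Prtn3 are neighbours on chromosome 10 and their proteins share a granule. Elane was well above background on all 20 arrays in both dyes.

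**Figure D2:**
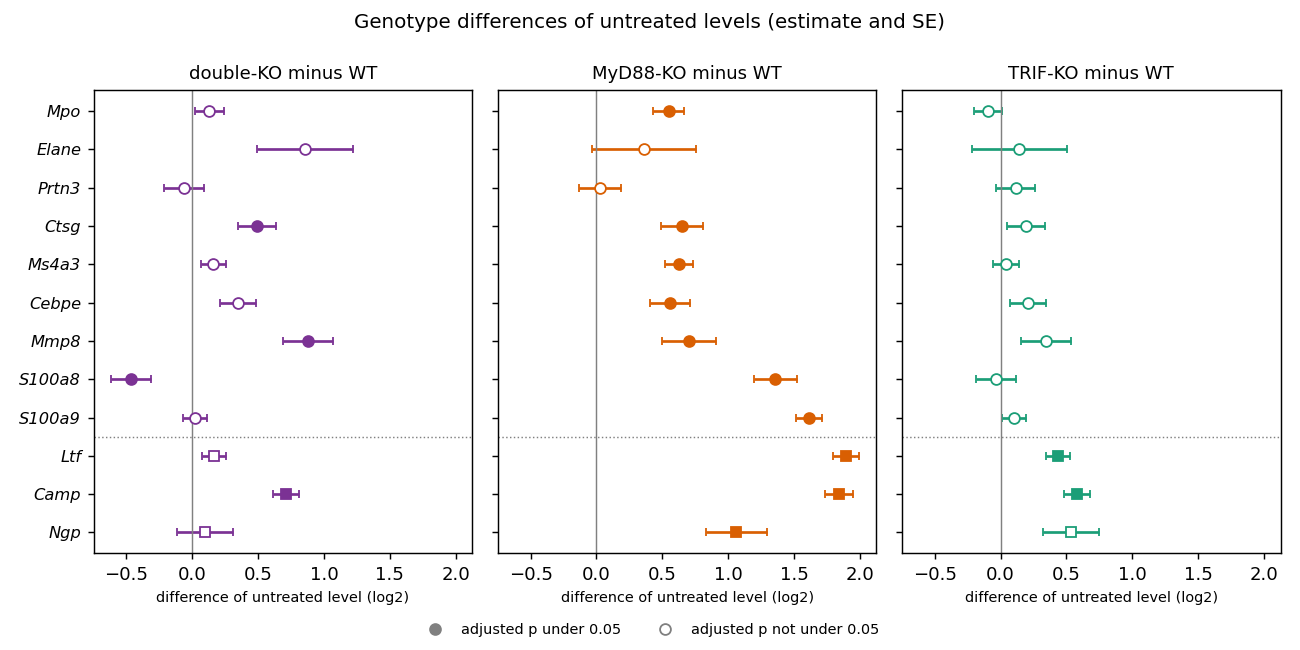
Differences of untreated level from WT (x, log2, point and SE) for double-KO, MyD88-KO and labelled TRIF-KO, for the 9 genes (circles) and, below the dotted line, for Ltf, Camp and Ngp on chromosome 9 (squares). Filled symbols have an adjusted p under 0.05 in limma: 7 of the 9 genes in MyD88-KO, 3 in double-KO and 0 in labelled TRIF-KO.

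With the time point alone as a block, double-KO cells, which lack MyD88 by their label as well, did not show the raised S100 genes. Of the 9 genes, 2 were higher and 1 lower in untreated double-KO than in WT, where 14.6% of 28304 probes were called higher, 10.9% lower and 25.5% in either direction. Mmp8 was higher by 0.88 ± 0.19 (limma adjusted p = 0.0035): it read 13.79, 13.27, 13.52, 13.69 and 13.40 in double-KO against 13.09, 12.91, 12.61, 12.54 and 12.13 in WT, in the order of time, and each double-KO array exceeded all WT arrays. Ctsg was higher by 0.49 ± 0.15 (adjusted p = 0.023), reading 9.44, 9.19, 9.14, 8.72 and 8.02 in double-KO, with overlap between the groups, and this call was lost in 5 of the 19 fits that leave out 1 array. All double-KO arrays were scanned on day 2 and all WT arrays on day 1, and these genotypes share no slide, so scan day and slide cannot be told apart from genotype within them. With scan day as a fixed block, estimated through the genotypes in between, Mmp8 differed by 0.54 and Ctsg by 0.92 (limma adjusted p = 0.46 and 0.09), and with slide by 1.81 and 1.77 (limma adjusted p = 0.095 and 0.084). Without the time point as a block Ctsg differed by 0.49 (limma adjusted p = 0.4). S100a8 was lower by 0.46, at 11.61, 11.43, 11.32, 12.29 and 12.05 in double-KO, against 11.82, 12.27, 12.13, 12.46 and 12.35 in WT (adjusted p = 0.036).

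That S100a8 call was unstable. It turned to a higher level in double-KO, by 0.70 ± 0.68 with slide and by 0.30 ± 0.29 with scan day as a fixed block, neither called, and it was lost when any 1 of 7 arrays was left out. S100a9 differed by 0.02 ± 0.09 between double-KO and WT (limma adjusted p = 0.89). Elane averaged 13.14 ± 0.74 in double-KO and 12.28 ± 0.41 in WT (SD, n = 5 each), a difference of 0.86 ± 0.36 with an adjusted p of 0.099.

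Set directly against MyD88-KO, untreated double-KO was lower in 4 of the 9 genes and higher in 0, where 3.95% of probes were called lower, 3.55% higher and 7.5% in either direction. S100a8 fell by 1.82 ± 0.16 and S100a9 by 1.59 ± 0.10 (limma adjusted p = 4e-06 and 6e-08), and the arrays did not overlap: S100a9 ran from 14.54 to 15.33 in double-KO and from 16.27 to 16.61 in MyD88-KO. Ms4a3 fell by 0.47 and Mpo by 0.42 (adjusted p = 0.012 and 0.042). Ms4a3 lost its call without MyD88-KO at 4 h (adjusted p = 0.068), and the Mpo call was lost in 12 of the 19 fits that leave out 1 array. Ctsg, Cebpe and Mmp8 differed by -0.16, -0.21 and 0.17 and were not called. On slide 4, where both genotypes lie but at different times, Mpo read 7.95 to 8.48 in MyD88-KO, against 8.37 in double-KO at 1 h.

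In labelled TRIF-KO, 0 of the 9 genes were called against WT in limma, also at an unadjusted p under 0.05, where 0.544% of all probes were called in either direction. The differences ran from -0.10 for Mpo to 0.345 for Mmp8, with a median of 0.11. Mmp8 read 13.72, 13.49, 13.28, 12.61 and 11.90 in labelled TRIF-KO, against 13.09, 12.91, 12.61, 12.54 and 12.13 in WT, in the order of time. It was above WT up to 8 h and below WT at 16 h. The labelled TRIF-KO arrays of 1, 2 and 4 h lay on slide 2, and those of 8 and 16 h on slide 3.

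The LPS-treated cells of the same arrays, read in the other dye, gave fewer calls in MyD88-KO. In MyD88-KO against WT, 2 of the 9 genes were called higher and 0 lower, where 0.322% of 28302 probes were called higher and 0.223% lower. S100a9 read 15.95, 15.74, 15.91 and 15.64 in LPS-treated MyD88-KO at 1, 4, 8 and 16 h, against 13.93, 14.48, 14.56, 14.43 and 13.82 in LPS-treated WT in the order of time, a difference of 1.58 ± 0.24 (limma adjusted p = 0.016). The groups did not overlap, as in untreated cells, but the call ended without WT at 8 h (adjusted p = 0.059) or MyD88-KO at 8 h (adjusted p = 0.073). Ctsg was higher by 0.71 ± 0.13 (adjusted p = 0.035), a call lost in 11 of the 19 fits that leave out 1 array. Cebpe differed by 1.28 ± 0.28 without a call (adjusted p = 0.055). Ms4a3 differed by 0.58 ± 0.15, also without a call (limma adjusted p = 0.094), and was not well above background on any LPS-treated WT array.

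In LPS-treated double-KO against WT, Ctsg and Cebpe were higher by 0.60 ± 0.12 and 0.91 ± 0.26 and S100a8 was lower by 1.15 (limma adjusted p = 0.0032, 0.017 and 0.04), that is 2 genes called higher and 1 lower, where 17.3% of probes were called higher, 12.8% lower and 30.1% in either direction. Cebpe read 11.26, 10.09, 10.45, 10.68 and 10.20 in LPS-treated double-KO, against 10.35, 10.12, 8.96, 9.27 and 9.42 in LPS-treated WT, in the order of time. The genotypes lay close at 2 h and apart at 1, 4, 8 and 16 h. The Cebpe call was lost without double-KO at 4 h or at 8 h (adjusted p = 0.06 and 0.063), and the S100a8 call in 8 of the 19 fits that leave out 1 array. With scan day as a fixed block, Cebpe and Ctsg differed by 0.16 and 0.48 (limma adjusted p = 0.88 and 0.28), and with slide as a fixed block by 1.20 and 1.55 (limma adjusted p = 0.78 and 0.35), with no call. With slide or scan day as a fixed block, S100a8 turned to higher in LPS-treated double-KO, by 0.95 and 0.28, with no call. In labelled TRIF-KO against WT, 0 of 9 were called in limma and 0 at an unadjusted p under 0.05, where 0.0848% of all probes were called.

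Untreated and LPS-treated levels of 1 array went together for most genes. Over the 20 arrays, Pearson's r between the channels was 0.952 for Ctsg, 0.938 for Elane, 0.9 for S100a9, 0.707 for S100a8 and 0.622 for Mmp8. The channels share the array, the time and the culture preparation, so these values describe how much of the spread is common to both.

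**Figure D3:**
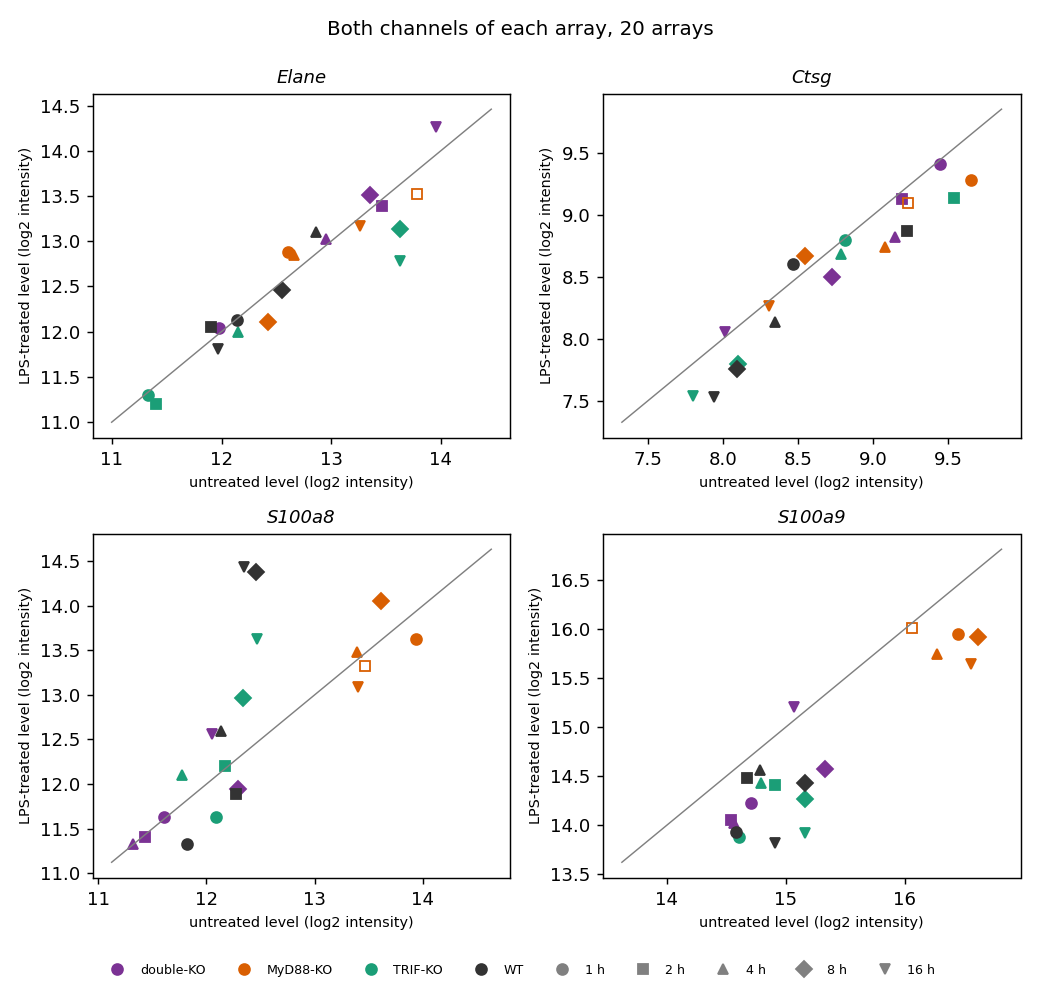
LPS-treated level (y) against untreated level (x), both in log2 intensity, on 20 arrays for Elane, Ctsg, S100a8 and S100a9, with colours for genotype and symbols for time. The grey line marks equal levels and open symbols the swapped MyD88-KO array. Elane and Ctsg follow the line, S100a9 lies below it on 19 arrays, and the 8 and 16 h WT arrays of S100a8 lie farthest above it.

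Elane varied widely between arrays. Its untreated level was 11.98, 13.47, 12.96, 13.35 and 13.96 in double-KO, 12.60, 12.66, 12.42 and 13.26 in MyD88-KO at 1, 4, 8 and 16 h, 11.33, 11.40, 12.15, 13.63 and 13.63 in labelled TRIF-KO, and 12.14, 11.90, 12.86, 12.55 and 11.97 in WT. The range of labelled TRIF-KO alone took in all WT arrays and the 4 MyD88-KO arrays in the fit, with low arrays at 1 and 2 h and high ones at 8 and 16 h. The swapped MyD88-KO array, at 13.78, lay outside this range. In labelled TRIF-KO the 1, 2 and 4 h arrays lay on slide 2 and the 8 and 16 h arrays on slide 3. The later times there cannot be told apart from the slide. Across the 19 arrays, Elane went against Prtn3 (r = -0.712) and Ctsg (r = -0.447), although all 3 encode proteases of the same granule. The Prtn3 probe was well above background on only 9 arrays in Cy3. It read 8.02 in labelled TRIF-KO at 2 h, where Elane read 11.40, and from 6.80 to 7.20 on the others. How far the r with Prtn3 rests on that array was not tested.

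Within the set, r was highest between S100a8 and S100a9 (0.941, and 0.816 after the genotype means were taken off), followed by Ms4a3 with S100a9 (0.819, and 0.14 after the means were taken off). After the means were taken off, r was highest between Mpo and Ctsg (0.842, and 0.78 before). These are descriptions over 19 arrays that share genotypes, times and slides. The 5 other genes whose untreated pattern was most like the mean standardized pattern of the 9, out of 21969 searched, were Fam171b (r = 0.871), Chi3l3 (0.867), Hsd11b1 (0.861), Tshz3 (0.859) and Kiss1r (0.848). That mean pattern was highest on the MyD88-KO array of 1 h and positive on all 4 MyD88-KO arrays, and it was negative on all 5 WT arrays.

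The untreated levels of 5 of the 9 genes changed over the hours of the experiment. With 1 slope over log2 time shared by the genotypes, a test added after the data were seen, Ctsg changed by -0.31 ± 0.05, Mmp8 by -0.21 ± 0.05 and Mpo by -0.17 ± 0.03 per doubling of time, while Elane changed by 0.31 ± 0.09 and S100a9 by 0.11 ± 0.03 (limma adjusted p = 0.00012, 0.0017, 0.00034, 0.01 and 0.0078). That is 3 of the 9 falling and 2 rising, where 16.5% of all probes fell and 15.2% rose. Slopes per genotype were not fitted to untreated levels, and the shared slope need not hold in each genotype. Elane read 12.14 at 1 h and 11.97 at 16 h in WT, and 12.60 and 13.26 in MyD88-KO. It read 11.98 and 13.96 in double-KO, and 11.33 and 13.63 in labelled TRIF-KO. The sign of S100a9 turned, to -0.03 ± 0.06, without normalization between arrays, where Elane changed by 0.14 with no call (limma adjusted p = 0.14). Mmp8 lost its call with slide as a fixed block, at -0.13 (limma adjusted p = 0.12). The mean level of 23 cell cycle genes also differed widely within each genotype over these times, from 10.18 to 12.34 in double-KO, from 10.24 to 12.24 in MyD88-KO, from 10.00 to 12.50 in labelled TRIF-KO and from 10.16 to 12.34 in WT, and its part in these slopes was not tested.

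After LPS, 5 of the 9 genes (S100a9, S100a8, Cebpe, Mpo and Elane) had a called mean ratio in at least 1 genotype. The matching share of all probes was not computed, and it cannot be lower than the 36.4% called in WT alone. The ratio of LPS-treated over untreated RNA within an array, averaged over the 5 times, was called for 0 genes in double-KO (2 at an unadjusted p under 0.05 in limma), for 2 in MyD88-KO, 3 in labelled TRIF-KO and 3 in WT. The same mean ratio was called for 0.159% of all probes in double-KO, 36.2% in MyD88-KO (17.2% higher, 19% lower), 29% in labelled TRIF-KO (13.1% higher, 16% lower) and 36.4% in WT (17% higher, 19.3% lower). The members' counts of 0, 2, 3 and 3 of 9 are near those shares. S100a9 fell by 0.54 ± 0.13 in MyD88-KO, by 0.74 ± 0.13 in labelled TRIF-KO and by 0.58 ± 0.13 in WT (limma adjusted p = 0.0071, 0.0013 and 0.0046). Its ratio was -0.43 ± 0.13 in double-KO (adjusted p = 0.29).

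The S100a9 ratios were -0.48, -0.49, -0.55, -0.76 and 0.13 in double-KO, -0.50, -0.05, -0.53, -0.70 and -0.91 in MyD88-KO, -0.73, -0.50, -0.35, -0.90 and -1.24 in labelled TRIF-KO and -0.65, -0.19, -0.22, -0.74 and -1.09 in WT, in the order of time. All but 1 of the 20 arrays had a negative value, among them 4 of the 5 double-KO arrays, although these cells lack both adapters by their label. The value nearest to 0 among the negative ones was that of the swapped array, the only one with LPS-treated RNA in Cy3. With a dye term, which rests on that array alone, the mean ratios were -0.43 ± 0.18 in MyD88-KO, -0.56 ± 0.23 in labelled TRIF-KO and -0.39 ± 0.23 in WT, and none was called.

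Cebpe fell by 0.84 ± 0.16 in labelled TRIF-KO and by 0.76 ± 0.16 in WT (limma adjusted p = 0.002 and 0.0028). Its ratio was 0.08, -0.13, -1.05, -1.63 and -1.44 in labelled TRIF-KO and -0.23, -0.29, -0.99, -1.25 and -1.04 in WT at 1, 2, 4, 8 and 16 h, so that the arrays from 4 h on were lowest in both. Both calls were lost with scan day as a block, at -0.50 in labelled TRIF-KO and -0.43 in WT (limma adjusted p = 0.12 and 0.17), and with a dye term, at -0.91 and -0.83 (limma adjusted p = 0.12 and 0.14), and that of WT with slide as a fixed block, at -1.39 (limma adjusted p = 0.29). The Cebpe ratio ran from -0.33 to just under 0 in double-KO and from -0.43 to 0.35 in MyD88-KO, where it was not called. The difference of MyD88-KO from WT was 0.69 ± 0.23 with an adjusted p of 0.23, so the ratios of these genotypes were not shown to differ.

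Mpo fell by 0.37 ± 0.07 in MyD88-KO (limma adjusted p = 0.0022), with ratios of -0.26, -0.47, -0.47, -0.15 and -0.53, all below 0. Elane fell by 0.35 ± 0.10 in labelled TRIF-KO (adjusted p = 0.016), with -0.04, -0.20, -0.15, -0.50 and -0.85 in the order of time, and without the 16 h array the value was -0.22 (adjusted p = 0.12), and without the 8 h array -0.34 (adjusted p = 0.069). Both calls were lost with slide as a fixed block and with a dye term, and that of Elane with scan day as a block as well. Ctsg, Ms4a3, Prtn3 and Mmp8 were called in none of the genotypes.

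Set against WT, the mean ratio differed for 0 of the 9 genes in each of double-KO, MyD88-KO and labelled TRIF-KO in limma, with 1, 3 and 1 genes at an unadjusted p under 0.05. Among all probes 12.8% were called for double-KO (6.21% higher, 6.55% lower), 0% for MyD88-KO and 0% for labelled TRIF-KO. The comparisons with WT share the WT arrays.

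**Figure D4:**
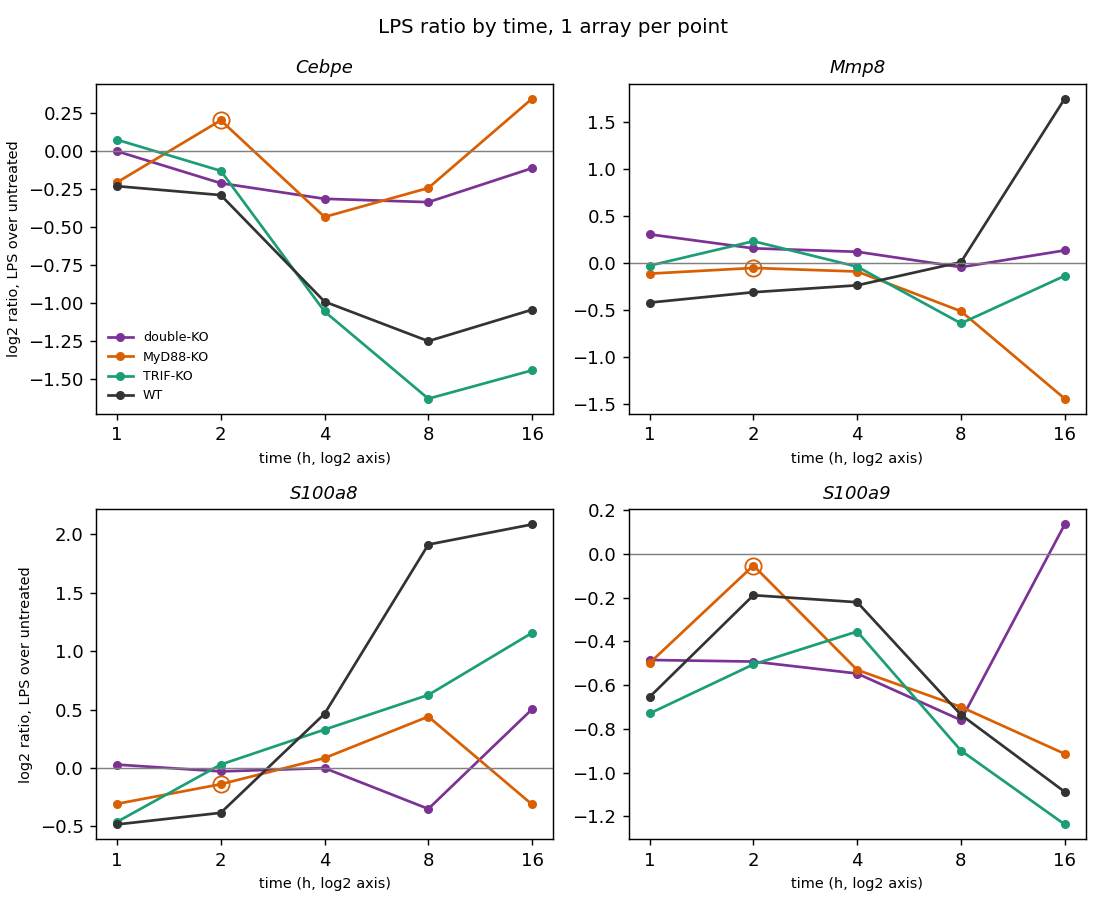
Log2 ratio of LPS-treated over untreated RNA (y) against time in h (x, log2 axis) for Cebpe, Mmp8, S100a8 and S100a9, with 1 line per genotype and 1 array per point. The ring marks the swapped MyD88-KO array. S100a8 reaches 1.91 and 2.09 in WT at 8 and 16 h, and Mmp8 reaches 1.75 in WT at 16 h.

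S100a8 rose late after LPS. Its mean ratio over the 5 times in WT was 0.72 ± 0.25 (limma adjusted p = 0.034), a call lost without WT at 4, 8 or 16 h (adjusted p = 0.067, 0.22 and 0.18) and in the fits with slide, scan day or dye as a term or without the time point (limma adjusted p from 0.081 to 0.74). Its ratio was -0.48, -0.38, 0.46, 1.91 and 2.09 in WT at 1, 2, 4, 8 and 16 h, a slope of 0.74 ± 0.10 per doubling of time (limma adjusted p = 0.001). In labelled TRIF-KO it was -0.46, 0.03, 0.33, 0.63 and 1.16, a slope of 0.38 ± 0.10 (adjusted p = 0.026), a call lost without the labelled TRIF-KO array of 1, 2, 8 or 16 h. In both genotypes each later array was higher than the one before it.

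S100a8 stayed between -0.35 and 0.50 in double-KO and between -0.31 and 0.44 in MyD88-KO, where slopes were not called. Tests of the difference in slope, added after the data were seen, gave -0.68 ± 0.14 for double-KO minus WT and -0.69 ± 0.14 for MyD88-KO minus WT (limma adjusted p = 0.045 and 0.036), and -0.36 ± 0.14 for labelled TRIF-KO minus WT (adjusted p = 1). The call for double-KO ended in 15 of the 20 fits that leave out 1 array, and that for MyD88-KO in 10. With slide as a fixed block neither was called (limma adjusted p = 0.29 and 0.24). S100a9, which shares most of the pattern of S100a8 in untreated cells, had a slope of -0.14 ± 0.09 in WT and was not called.

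Mmp8 rose late in WT, by 0.47 ± 0.12 per doubling of time (limma adjusted p = 0.031), with ratios of -0.42, -0.31, -0.24, 0.01 and 1.75, and without the 16 h array the slope was 0.14 (adjusted p = 0.49), and without the 2 h array it was 0.47 (adjusted p = 0.075). In MyD88-KO it was -0.11, -0.05, -0.09, -0.51 and -1.45 and had no called slope of its own. The slopes of MyD88-KO and WT differed by -0.78 ± 0.16 (adjusted p = 0.044), and by -0.45 (adjusted p = 0.21) without WT at 16 h, 1 of 12 such fits out of 20 in which the call was lost. It was also lost with slide, scan day or dye as a term (limma adjusted p from 0.057 to 0.23). Cebpe had a slope of -0.45 ± 0.09 in labelled TRIF-KO (adjusted p = 0.0066), which was -0.45 with an adjusted p of 0.065 without the 1 h array.

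In all, slopes of the ratio were called for 2 of the 9 genes in WT (2 rising, where 2.81% of all probes rose and 2.53% fell), for 1 rising and 1 falling in labelled TRIF-KO (3.31% and 3.79%, together 7.1%), for 0 in MyD88-KO (10.4% in either direction, 5.58% rising and 4.83% falling, with 1 of the 9 at an unadjusted p under 0.05 in limma) and for 0 in double-KO (0% in either direction, with 0 of the 9 at an unadjusted p under 0.05). Slope differences from WT were called for 1 of the 9 in double-KO, where 0.445% of probes were called, for 2 in MyD88-KO, where 0.912% were, and for 0 in labelled TRIF-KO, where 0% were and 2 of the 9 had an unadjusted p under 0.05.

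Granule genes that lie near Myd88 on chromosome 9 gave larger differences than most of the set in untreated MyD88-KO. Ltf, Camp and Ngp, which encode lactoferrin, the cathelicidin peptide and a neutrophilic granule protein of secondary granules, lie within 10 Mb of the Myd88 probe. In untreated MyD88-KO against WT they were higher by 1.90 ± 0.10, 1.84 ± 0.11 and 1.06 ± 0.23 (limma adjusted p = 3.5e-08, 1.2e-07 and 0.012), against 1.61 for S100a9 and 1.36 for S100a8 on chromosome 3. Camp was also higher in double-KO, by 0.71 ± 0.10 (limma adjusted p = 0.00011), but Ltf and Ngp, at 0.16 and 0.10, were not called there (limma adjusted p = 0.2 and 0.77). Double-KO minus MyD88-KO was -1.73 for Ltf, -1.13 for Camp and -0.96 for Ngp (limma adjusted p = 2.5e-08, 6.4e-06 and 0.018). In labelled TRIF-KO, where 0 of the 9 genes was called, Camp was higher by 0.58 ± 0.10 and Ltf by 0.44 ± 0.09 (limma adjusted p = 0.013 and 0.047). Ngp, at 0.54, was not called there (limma adjusted p = 0.26).

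Within 10 Mb of the Myd88 probe, 9.57% of 230 probes were called higher and 4.35% lower in untreated MyD88-KO than in WT. The probes of Ltf, Camp and Ngp are among those called higher. The shares were 6.64% and 2.57% on the rest of chromosome 9, where Mmp8 lies, and 5.89% and 3.62% on the other chromosomes outside 10 Mb of Ticam1, where the other 8 genes lie. In double-KO 15.2% of 231 probes near Myd88 were called higher and 12.1% lower, against 14.7% and 11% on the other chromosomes.

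**Figure D5:**
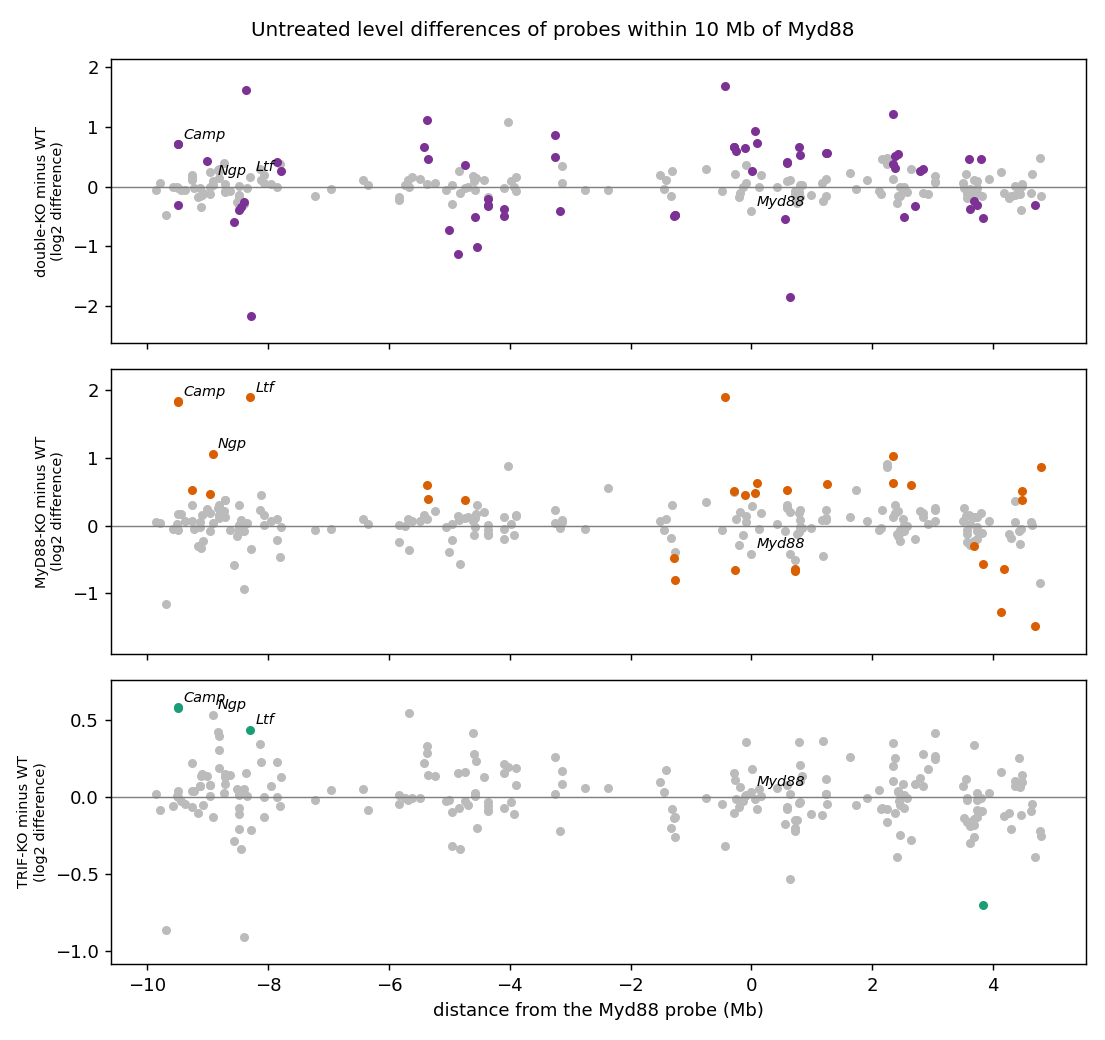
Difference of untreated level from WT (y, log2) against distance from the Myd88 probe (x, Mb) for probes within 10 Mb, in double-KO, MyD88-KO and labelled TRIF-KO. Coloured points have an adjusted p under 0.05 in limma and grey points do not. The vertical scales differ between panels. Camp, Ltf and Ngp stand at the far left, and in MyD88-KO Ltf and Camp reach 1.90 and 1.84.

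The probes beside the 9 genes are counted here against shares over all probes of 5.95% higher and 3.6% lower. Within 0.5 Mb of S100a8 and S100a9, 1 of 35 other probes was called higher in untreated MyD88-KO than in WT (S100a14, by 0.39) and 2 lower (S100a1, by 0.65, and S100a2, by 0.44). Around Elane and Prtn3 it was 9 higher and 0 lower of 72, around Mpo 4 and 0 of 23, around Ctsg 2 and 0 of 36, around Cebpe 3 and 2 of 44, and around Mmp8 1 and 0 of 17. Around Ms4a3, 0 of 30 were higher and 6 lower, among them Ms4a4c (-1.92) and Ms4a6b (-1.11), members of the same gene family.

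Other genes of the lineage moved unevenly in the same comparison. Of 21 measured granule and late granulocyte genes outside the set, 10 were higher in untreated MyD88-KO than in WT and 1 was lower, with a median difference of 0.32, beside 5.95% higher and 3.6% lower over all probes, the shares for all lists in this comparison. Chi3l3, a chitinase-like protein, was higher by 1.21 ± 0.14, Retnlg, a resistin-like protein, by 1.15 ± 0.15 and Stfa1, a cysteine protease inhibitor, by 1.09 ± 0.11, and Cybb, a subunit of the NADPH oxidase, fell by 0.81 ± 0.19 (limma adjusted p = 0.00018, 0.00048, 4.4e-05 and 0.016). In double-KO, where the shares over all probes were 14.6% and 10.9%, 1 of the 21 was higher and 7 were lower, led by Lcn2, which fell by 2.86 ± 0.73, and Slpi and Hp, which each fell by 2.09. Double-KO and WT share no slide or scan day, a limit that holds for every list.

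Of 22 progenitor and granule processing genes, 2 were higher and 2 lower in untreated MyD88-KO than in WT, with a median of -0.0047. Serpinb1a, an inhibitor of the granule serine proteases, was higher by 1.06 ± 0.13, and Ctsc, which activates these proteases, fell by 0.90 ± 0.12 (limma adjusted p = 0.00034 and 0.00066). In double-KO 4 of the 22 were higher and 5 lower.

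Of 14 mature neutrophil markers, 3 were higher and 2 lower in untreated MyD88-KO than in WT, with a median of -0.03. Fpr1 and Fpr2, receptors for formyl peptides that macrophages also express, fell by 4.12 ± 0.46 and 3.69 ± 0.24, and Itgb2l, an integrin chain, was higher by 1.27 ± 0.11 (limma adjusted p = 0.00012, 4.6e-07 and 7.4e-06). The mean log2 level of these markers, Fpr1 and Fpr2 among them, ran from 8.67 to 8.93 in double-KO and from 9.05 to 9.40 in MyD88-KO. It ran from 9.24 to 9.97 in labelled TRIF-KO and from 9.41 to 9.85 in WT. Its part in the differences of the 9 was not tested.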

How the data were processed

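RNA of LPS-treated and untreated cells was hybridised together on 20 two-colour Agilent arrays. The deposited scanner files hold the intensity of each spot and its background in Cy3 and Cy5, produced with Agilent Feature Extraction 10.10.1.1 per the submitters' processing notes. The deposited value table equals the scanner's log10 ratio of Cy5 over Cy3 within 5e-10, and was used as an alternative. Untreated RNA was in Cy3 on 19 arrays and in Cy5 on 1, MyD88-KO at 2 h, whose ratio was turned. The log2 values here were computed from the deposited intensities with limma 3.58.1 in R 4.3.3: normexp with an offset of 50, loess within arrays, quantile normalization of the average intensity for levels, and the mean over spots of a probe. Probes detected well over background in either dye on 3 or more arrays were kept (28304 of 39429). Coordinates are mm9, from the files.

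Levels were fitted on 19 arrays, without the swapped array, and ratios on 20, with genotype and time point as terms. The time point is the labels' replicate number. Same-time arrays deviated together in untreated levels (correlations of 0.13 to 0.81), so the block was kept. In LPS-treated levels the correlations were 0.05 to 0.85. In ratios they were 0.23 to 0.83 among MyD88-KO, labelled TRIF-KO and WT, but -0.2 to 0.14 for pairs with double-KO, where the numbers are not shown to pair. Slopes used log2 time. P-values were adjusted by Benjamini-Hochberg across all kept probes at 0.05, and the fits were tested on simulated data. The number of arrays limits the precision. Alternatives covered background correction, normalization, the probe filter, blocks for slide, scan day and dye, the genotypes compared alone, and each array left out. The members, lists and named genes were chosen with earlier results of these data known. Named are all members, Ltf, Camp, Ngp, the targeted genes, up to 3 called genes of each list with the largest difference, and the 5 nearest patterns. Cybb, Ctsc and the named neighbours were chosen after their values were seen.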

Additional observations from a re-analysis of the deposited data

Results flagged for a closer look

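Among 108 groups of 4 or 5 arrays of 1 gene, measure and genotype, 5 held an array far from the others by Dixon's test at 95%, where chance gives about 1 in 20. Mmp8 in LPS-treated WT at 16 h read 13.88, while the other WT arrays read 12.38 to 12.67, and its log2 ratio there was 1.75, while the others were -0.42 to 0.01. Cebpe in untreated cells at 4 h read 10.09 in labelled TRIF-KO, with the other arrays at 10.68 to 10.80, and 9.95 in WT, with the others at 10.41 to 10.57. The Ms4a3 ratio in MyD88-KO at 8 h was 0.33, with the others at -0.46 to -0.24.

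The response over time differed from WT for S100a8 and Mmp8 by the test of the difference in slope, added after the data were seen. S100a8 differed by -0.68 per doubling of time in double-KO and by -0.69 in MyD88-KO, and Mmp8 differed by -0.78 in MyD88-KO. These comparisons share the WT arrays.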

How the results depend on the processing

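The higher S100a8 and S100a9 levels of untreated MyD88-KO, against WT and against double-KO, kept their call in all 31 alternatives run. Counts of called members moved more. For untreated MyD88-KO minus WT (7), the count was 2 without normalization between arrays, 3 with no replicate block, 2 with slide as a fixed block, 3 with slide as a random block, 3 with scan day as a block, and 4 to 7 with 1 array left out. For untreated double-KO minus WT (3), these were 1, 1, 0, 1, 0 and 1 to 4. For untreated double-KO minus MyD88-KO (4), it was 2 without normalization between arrays, 2 on the scanner's processed signals, 2 with these genotypes alone, and 2 to 4 with 1 array left out. For LPS-treated MyD88-KO minus WT (2), it was 4 without background correction, 4 on processed signals, 0 without normalization between arrays, 1 with no replicate block, 0 under each slide or scan day block and with these genotypes alone, 1 without 16 h arrays, and 0 to 3 with 1 array left out. For LPS-treated double-KO minus WT (3), it was 0 with no replicate block, 0, 1 and 0 under the 3 blocks, and 1 to 4. Mean ratios gave, with slide fixed and with the dye term, 0 and 0 in MyD88-KO (2; 2 to 3 with 1 array left out); 1 with scan day and 0 with dye in labelled TRIF-KO (3; 2 to 3); 1 with another scaling, 0 with slide fixed, 1 with scan day and 0 with dye in WT (3; 2 to 4); and 2 with another scaling in double-KO (0; 0 to 1). Slopes gave 0, 0 and 1 with scaling, slide fixed and slide random in labelled TRIF-KO (2; 0 to 3), and 1, 1 and 1 in WT (2; 1 to 2), 0 to 1 in MyD88-KO and 0 in double-KO with 1 array left out. Slope differences gave 1 on the deposited log ratio, 1 with no filter, 1 with the dye term and 0 under the other changed settings for MyD88-KO minus WT (2; 0 to 2), and 0 on the deposited log ratio, with scaling, no filter, slide fixed, slide random, these genotypes alone and the dye term for double-KO minus WT (1; 0 to 1). The shared untreated slope gave 5 to 6 with 1 array left out. Signs turned for Ms4a3 in untreated double-KO minus MyD88-KO without normalization between arrays (0.0901), for S100a8 in double-KO minus WT with slide fixed (0.70 untreated, 0.95 LPS-treated) and scan day (0.30 and 0.28), and for the S100a9 untreated slope without normalization between arrays (-0.0316). Calls of that slope were lost for Elane in the same setting (0.14) and for Mmp8 with slide fixed (-0.13). Over all probes, untreated MyD88-KO minus WT gave 2703 calls, 297 with no replicate block and 39 without normalization between arrays. The cause of these changes was not tested. Prtn3 and Ms4a3 are limited by signals near background.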

Other observations

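Of 9 eosinophil, basophil and mast cell markers, 4 were higher in untreated double-KO than in WT, among them Tpsb2 by 0.95 and Ear2 by 0.45 on the log2 scale (limma, adjusted p under 0.05 each), where 14.6% of all probes were called higher.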
